A study of Mus musculus with 45 samples.

Results

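The Fc receptor genes were followed across macrophage polarization and *Famin* genotype: the activating IgG receptors *Fcgr1*, *Fcgr3* and *Fcgr4*, the inhibitory IgG receptor *Fcgr2b*, the shared signaling chain *Fcer1g* and the neonatal Fc receptor *Fcgrt*. They were chosen by name, matched to the gene symbols of the deposited CPM table, in which reads are scaled to the size of each library, and then by Ensembl identifier to the deposited counts, and all 6 of 6 were found among 29307 genes. All 6 were also among the 12905 genes with enough reads to be tested. The libraries came from bone marrow-derived macrophages of C57BL/6N mice aged 6 to 10 weeks, with 5 mice of each of 3 genotypes. *Famin* p.254I mice, engineered to carry the fully active human variant, served as the controls, *Famin* p.254V mice carry a common variant linked to Crohn's disease, and *Famin* p.284R mice carry a variant of monogenic inflammatory disease. All groups share the C57BL/6N strain and 6 days of culture, which the study's methods give as culture in M-CSF. Cells were then left unstimulated (M0), polarized with IFN-γ and LPS (M1) or polarized with IL-4 (M2), which gave 45 libraries in 9 groups of 5.

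Fc receptors let macrophages sense antibody bound to microbes, cells or immune complexes. FcγRI (*Fcgr1*) binds monomeric IgG with high affinity, whereas FcγRIII (*Fcgr3*) and FcγRIV (*Fcgr4*) bind complexed IgG. The 3 proteins signal through the FcRγ chain encoded by *Fcer1g*, whose activation motif recruits the kinase SYK. FcγRIIB (*Fcgr2b*) carries an inhibitory motif that recruits the lipid phosphatase SHIP1 and raises the threshold for activation. FcRn (*Fcgrt*) pairs with β2-microglobulin in endosomes and returns IgG to the cell surface, away from lysosomes. IFN-γ is known to induce *Fcgr1* in myeloid cells, and IL-4 is known to raise the inhibitory receptor on monocytes.

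Total counts per library ranged from 17239009 to 43740283, and no member had fewer than 395 reads in any library. Where genotype and number matched, the 3 libraries were treated as cultures of 1 mouse, and whether mice of a genotype came from separate litters or culture days is not stated. The genotype labels differ in the protein made and could not be checked from counts per gene. Reads of *Famin* itself averaged 130 ± 33.7 CPM (SD, n = 5) in p.284R, 171 ± 11.6 in p.254V and 185 ± 40.8 in p.254I in unstimulated cells. After M1 polarization they ranged from 218 to 584 CPM in p.284R, from 533 to 597 in p.254V and from 486 to 523 in p.254I, and with M2 from 56.8 to 200 CPM, from 159 to 183 and from 159 to 169 in the same order. The p.284R libraries overlapped both others in each polarization, and averaged over polarizations the log2 difference from p.254I was -0.42 (SE 0.13, unadjusted p = 0.00305, adjusted p = 0.578 by edgeR's quasi-likelihood test). The 6 macrophage markers *Adgre1*, *Csf1r*, *Cd68*, *Itgam*, *Mertk* and *Lyz2* were detected in each polarization and summed to between 9436 and 32605 CPM per library, whereas the 6 neutrophil markers summed to between 13.1 and 205 CPM. The 4 B cell markers reached at most 0.86 CPM together, the 4 T or NK cell markers 0.566 CPM, the 5 mast cell or basophil markers 0.314 CPM, the 5 dendritic cell markers 12.6 CPM and the 3 fibroblast markers 43.8 CPM. In bulk libraries, fewer cells with a transcript and less of it per cell cannot be told apart.

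A pair of features of the libraries touch the Fc receptor values and precede them. The mouse labeled *Famin* p.254I replicate 4 stood apart in M0, where the M1 control genes *Cxcl9*, *Nos2*, *Irf1* and *Socs1* were at their highest among 15 libraries. *Irf1* was at 136 CPM there against 77.0 to 122 CPM in the other 14 M0 libraries. The levels of *Nos2* (0.156 CPM, others at most 0.0879), *Cxcl9* (1.45, others at most 1.43) and *Socs1* (2.03, others at most 1.60) were low. The M1 control *Gbp2* ranked 4 of 15 from the top there. In M2 the same mouse had the highest *Cxcl9*, *Mrc1* and *Clec10a* and the lowest *Gbp2*, *Retnla*, *Chil3* and *Ccl24* of 15 libraries. In addition, libraries with the same replicate number deviated together across genotypes. Their correlations were over 0.1 in 15 of 15 pairs in M0 and in M1 and in 13 of 15 pairs in M2. The sources used here do not say what the number marks.

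*Fcgr1* and *Fcgr4* moved in the same directions, and the 250 bases upstream of their starts are shown because these are the 2 members that rose at least 2-fold in M1. *Fcgr1* (ENSMUSG00000015947) lies on chromosome 3 of GRCm38 from 96282909 to 96293969 on the minus strand. *Fcgr4* (ENSMUSG00000059089) lies on chromosome 1 from 171018920 to 171029761 on the plus strand, and the snRNA gene *Gm26110* lies within it. The sequences below are from RefSeq (GRCm38.p6), written in the direction of transcription, and cover chr3:96293970-96294219 and chr1:171018676-171018925. Capitals mark matches to the STAT palindrome with 3 bases between its arms (TTCNNNGAA, the same on both strands) or to the PU.1 core (GAGGAA, or TTCCTC on the other strand).
Fcgr1: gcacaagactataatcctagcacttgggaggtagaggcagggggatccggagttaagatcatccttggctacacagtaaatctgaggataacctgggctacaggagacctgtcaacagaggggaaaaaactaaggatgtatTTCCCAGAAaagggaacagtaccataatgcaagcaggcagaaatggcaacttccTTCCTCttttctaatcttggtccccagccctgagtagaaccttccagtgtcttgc
Fcgr4: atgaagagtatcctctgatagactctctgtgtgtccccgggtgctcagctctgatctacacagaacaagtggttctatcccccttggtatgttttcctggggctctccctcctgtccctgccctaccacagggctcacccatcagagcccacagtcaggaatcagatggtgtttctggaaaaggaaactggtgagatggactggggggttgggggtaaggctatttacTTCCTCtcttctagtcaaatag
In *Fcgr1* the STAT match TTCCCAGAA spans bases -109 to -101 before the start, and a PU.1 core spans bases -55 to -50. In *Fcgr4* a PU.1 core spans bases -22 to -17, and the STAT palindrome was not found within 250 bases. The PU.1 core was also present upstream of *Fcgr3*, for both of its RefSeq starts, and was not found upstream of *Fcgr2b*, *Fcer1g* or *Fcgrt*. The palindrome with 4 bases between its arms was found upstream of 0 of the 6 members. Of 32851 promoters of the same length, 7.02% held the STAT palindrome with 3 bases between its arms, 5.85% that with 4 and 23.3% the PU.1 core.

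Per kilobase of exon, *Fcer1g* was the highest of the 6 genes in M0, with a median of 670 CPM per kb over 15 libraries. It was followed by *Fcgr3* at 492, *Fcgr1* at 134, *Fcgrt* at 117, *Fcgr4* at 99.8 and *Fcgr2b* at 29.3 CPM per kb. Each neighboring pair in that order overlapped between libraries, although *Fcgr2b* was below *Fcgr4* in 15 of 15. In M1 *Fcgr4* moved to the top with a median of 1154 CPM per kb and overlapped *Fcer1g* at 1092, above which it lay in 8 of 15 libraries. *Fcgr3* at 573 and *Fcgr1* at 465 CPM per kb overlapped each other, and *Fcgrt* at 113 and *Fcgr2b* at 19.5 were each below every library of the gene ahead of them. In M2 the order after *Fcer1g* at 664 and *Fcgr3* at 393 CPM per kb was *Fcgr2b* at 63.4, *Fcgrt* at 33.0, *Fcgr4* at 21.8 and *Fcgr1* at 18.0. Thus *Fcgr2b* was the last of the 6 in M0 and M1 and the third in M2, where *Fcgr4* and *Fcgr1* were the last and overlapped. This order depends on the length used, that of all annotated exons of a gene together (5790 bases for *Fcgr2b*, 1256 for *Fcgr4*). In CPM without division by length, *Fcgr4* was above *Fcgr2b* in 2 of 15 M0 libraries.

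**Figure D1:**
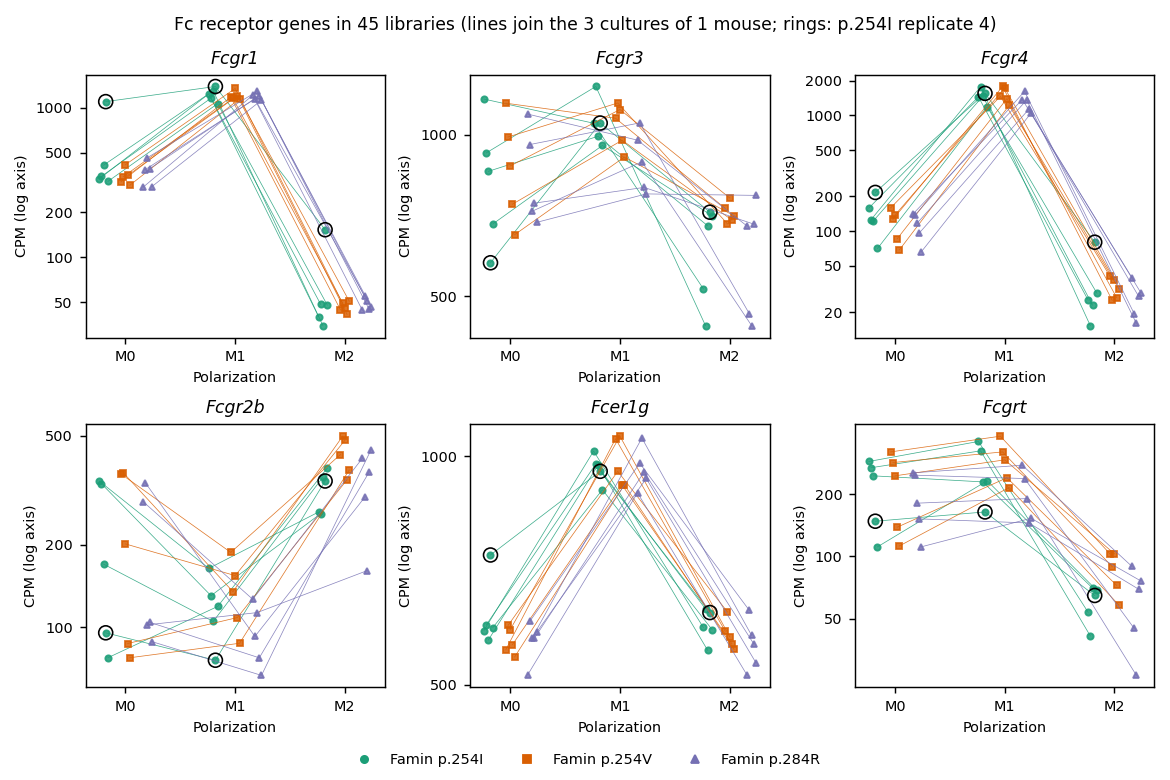
CPM (log axis) of the 6 Fc receptor genes in 45 libraries by polarization, 1 point per library, colored by genotype, with lines joining the 3 cultures of a mouse and rings on *Famin* p.254I replicate 4. *Fcgr1* and *Fcgr4* peak in M1 and are lowest in M2, *Fcgr2b* is highest in M2, *Fcer1g* rises in M1 alone, and *Fcgrt* is lowest in M2.

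Of the 6 members, 5 were called between M1 and M0 averaged over genotypes, that is, had an adjusted p under 0.05 by the quasi-likelihood test of edgeR, adjusted by Benjamini-Hochberg over all genes tested. *Fcgr1*, *Fcgr3*, *Fcgr4* and *Fcer1g* rose and *Fcgr2b* fell. Polarization changed most genes in these cells, and 77.3% of all genes tested were called in this comparison, 37% higher and 40.3% lower in M1. *Fcgr1* and *Fcgr4* rose at least 2-fold, as did 8.3% of genes tested, and 0 members fell as far, as did 13.3%. Between M2 and M0, 5 members were called against 76.4% of genes tested. *Fcgr2b* rose, which 36.8% of genes did, and *Fcgr1*, *Fcgr3*, *Fcgr4* and *Fcgrt* fell, which 39.6% did. A fall of at least 2-fold was seen in *Fcgr1*, *Fcgr4* and *Fcgrt* and in 10.3% of genes tested, and a rise of that size in 0 members and 6.18% of genes. Between M1 and M2, 6 of 6 members were called against 79.1% of genes tested. *Fcgr2b* was lower in M1, as were 40.1%, and the other 5 were higher, as were 39%. At least 2-fold higher in M1 than in M2 were *Fcgr1*, *Fcgr4* and *Fcgrt* and 11.6% of genes, and at least 2-fold lower were *Fcgr2b* and 13% of genes. The 3 comparisons share libraries. The cell type markers also moved with polarization. The macrophage markers summed to 19897 to 32605 CPM in M0, 9868 to 12933 in M1 and 9436 to 13432 in M2, the neutrophil markers to 20.8 to 205, 28.6 to 94.5 and 13.1 to 55.9, the dendritic cell markers to 0.506 to 1.80, 5.20 to 11.1 and 3.91 to 12.6, and the fibroblast markers to 9.91 to 43.8, 2.49 to 8.82 and 3.48 to 14.3. Their part in the Fc receptor changes was not tested.

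*Fcgr1*, the high-affinity IgG receptor, had between 294 and 1098 CPM in the 15 M0 libraries, with a median of 347. In M1 it had between 1064 and 1387 CPM (median 1203), and in M2 between 34.8 and 153 CPM (median 46.6). M1 libraries lay above all M0 libraries in 14 of 15 cases, and M2 libraries lay below every M0 library. The highest value in both M0 and M2 was that of *Famin* p.254I replicate 4. Without that mouse, M0 ranged from 294 to 463 CPM and M2 from 34.8 to 55.1 CPM. *Fcgr1* rose 3.03-fold in M1 (log2 fold change 1.60, SE 0.16, adjusted p = 6.02e-12 by edgeR's quasi-likelihood test), in 15 of 15 mice. In M2 it fell by 2.93 on the log2 scale (SE 0.17, adjusted p = 8.02e-19, same test), a 7.60-fold decrease seen in 15 of 15 mice. Without *Famin* p.254I replicate 4 the log2 fold changes were 1.76 (SE 0.063) and -2.95 (SE 0.067). M1 exceeded M2 23.0-fold.

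*Fcgr4*, which binds complexed IgG2 subclasses, had between 66.4 and 216 CPM in M0 (median 125), between 1049 and 1780 CPM in M1 (median 1450) and between 15.2 and 80.3 CPM in M2 (median 27.4). No M1 library overlapped an M0 library, and 14 of 15 M2 libraries lay below every M0 library. *Famin* p.254I replicate 4 again had the highest value in M0 and in M2, and the other mice did not exceed 159 and 40.7 CPM. The M1 increase was 11.8-fold (log2 fold change 3.56, SE 0.19, adjusted p = 3.87e-20 by edgeR's quasi-likelihood test), the largest among the 6 members. *Fcgr4* fell by 1.97 on the log2 scale in M2 (SE 0.18, adjusted p = 9.70e-13, same test). Without *Famin* p.254I replicate 4 these values were 3.64 (SE 0.15) and -2.08 (SE 0.14). M1 exceeded M2 46.3-fold, with a log2 fold change of 5.53 (95% CI 5.11 to 5.95).

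*Fcgr3* (ENSMUSG00000059498), the low-affinity activating receptor, lies on chromosome 1 from 171051174 to 171064935 on the minus strand, and the microRNA gene *Mir6546* lies within it. Of its distinct 50-base exonic sequences, the length of the reads, 9.58% also occur in *Fcgr2b*, so reads from that stretch cannot be assigned to either gene by sequence. For *Fcgr1*, *Fcgr4*, *Fcer1g* and *Fcgrt* the share found in any other gene was 0%. *Fcgr3* moved far less than *Fcgr1* and *Fcgr4*. It had between 577 and 1167 CPM in M0 (median 855), between 776 and 1231 CPM in M1 (median 994) and between 440 and 771 CPM in M2 (median 682). The M0 range overlapped both others, whereas M1 and M2 did not overlap. *Fcgr3* rose by 0.22 on the log2 scale in M1 (SE 0.095, adjusted p = 0.0308, same test as above), in 12 of 15 mice. That call did not hold without *Famin* p.254I replicate 4 (0.20, adjusted p = 0.0541), without p.254V replicate 3 (0.22, adjusted p = 0.055) or without p.284R replicate 3 (0.21, adjusted p = 0.0502). In M2 *Fcgr3* fell by 0.41 on the log2 scale (SE 0.095, adjusted p = 1.74e-04, same test), in 11 of 15 mice, and M1 exceeded M2 1.55-fold in 15 of 15 mice.

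*Fcgr2b* (ENSMUSG00000026656), the inhibitory receptor, lies on chromosome 1 from 170958617 to 170976547 on the minus strand, with the antisense gene *Gm38204*, which had 10 reads over all libraries, on the other strand. Averaged over mice, *Fcgr2b* ran opposite to *Fcgr1* and *Fcgr4*. It had between 77.4 and 366 CPM in M0 (median 170), between 66.8 and 187 CPM in M1 (median 113) and between 161 and 497 CPM in M2 (median 367). The M0 libraries spanned the M1 range almost whole and overlapped the M2 range, and 13 of 15 M1 libraries lay below every M2 library. *Fcgr2b* fell by 0.81 on the log2 scale in M1 (SE 0.23, adjusted p = 0.00167 by edgeR's quasi-likelihood test), in 11 of 15 mice. It rose by 0.83 in M2 (SE 0.23, adjusted p = 0.00137, same test), in 12 of 15 mice. M1 was lower than M2 in 15 of 15 mice, by a log2 value of -1.64 (SE 0.23, adjusted p = 4.59e-08, same test). The values differed by replicate number, a difference that was not tested. In mice numbered 1 and 2, *Fcgr2b* was at 287 to 366 CPM in M0 and at 92.6 to 187 CPM in M1 without overlap, while M2 at 260 to 497 CPM overlapped M0. In mice numbered 4 and 5 it was at 77.4 to 104 CPM in M0, M1 at 66.8 to 119 CPM overlapped it, and M2 at 341 to 445 CPM lay above it. Within mice, the mean log2 difference of M2 from M0 was 0.13 for number 1, -0.034 for number 2, 0.99 for number 3, 1.88 for number 4 and 2.30 for number 5 (3 mice each). That of M1 from M0 was -1.06, -1.55, -0.31, -0.15 and 0.13 in the same order. With the replicate number as a block, which fits 1 common response, *Fcgr2b* had log2 fold changes of -0.67 in M1 and 1.04 in M2.

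**Figure D2:**
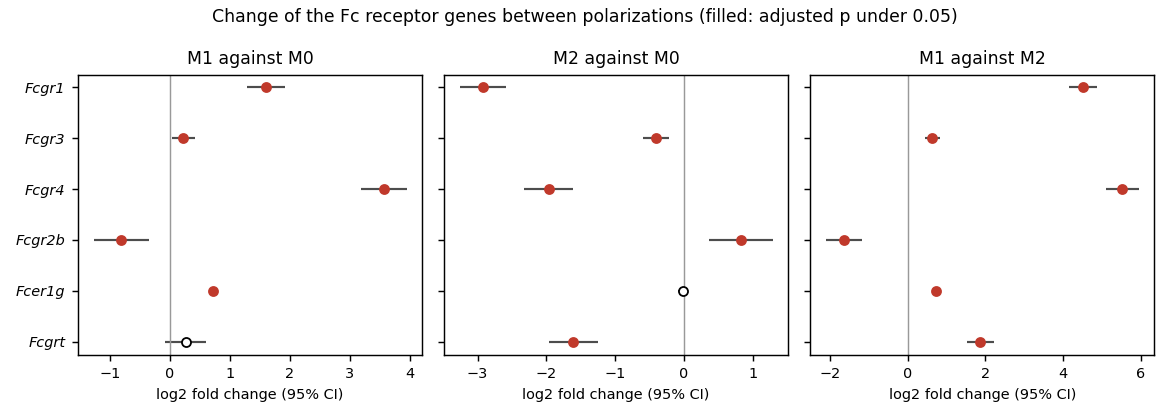
Log2 fold changes of the 6 Fc receptor genes between polarizations, averaged over genotypes, with 95% confidence intervals from edgeR's fit of all 45 libraries, and with filled points where the adjusted p was under 0.05. *Fcgr4* has the largest rise in M1 (3.56) and *Fcgr1* the largest fall in M2 (-2.93), whereas *Fcgr2b* moves the other way (-0.81 and 0.83).

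The ratio of each activating receptor to *Fcgr2b* within a library does not depend on how libraries are scaled. These are ratios of CPM, not per length, so their sign does not say which gene is higher, and only their changes between polarizations are compared. The log2 ratio of *Fcgr4* to *Fcgr2b* had a median of -0.48 in M0 (-1.53 to 1.18), 3.72 in M1 (2.96 to 4.36) and -3.69 in M2 (-4.30 to -2.09). That of *Fcgr1* to *Fcgr2b* had a median of 1.28 in M0 (-0.18 to 3.52), 3.47 in M1 (2.65 to 4.19) and -3.03 in M2 (-3.39 to -1.16). For both genes M1 lay above M2 without overlap. The ratio of *Fcgr3* to *Fcgr2b* had a median of 2.33 in M0 (1.44 to 3.14), 3.17 in M1 (2.52 to 3.79) and 0.89 in M2 (0.46 to 1.45), and here too M1 lay above M2 without overlap. Within mice, all 3 ratios were lower in M2 than in M0 in 15 of 15. From M0 to M1 the ratios of *Fcgr1* and *Fcgr4* were higher in 15 of 15 mice and that of *Fcgr3* in 14 of 15. The M0 ratios split by replicate number. That of *Fcgr1*, for example, was between -0.18 and 0.19 in mice numbered 1 and 2 and between 1.74 and 3.52 in those numbered 4 and 5.

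**Figure D3:**
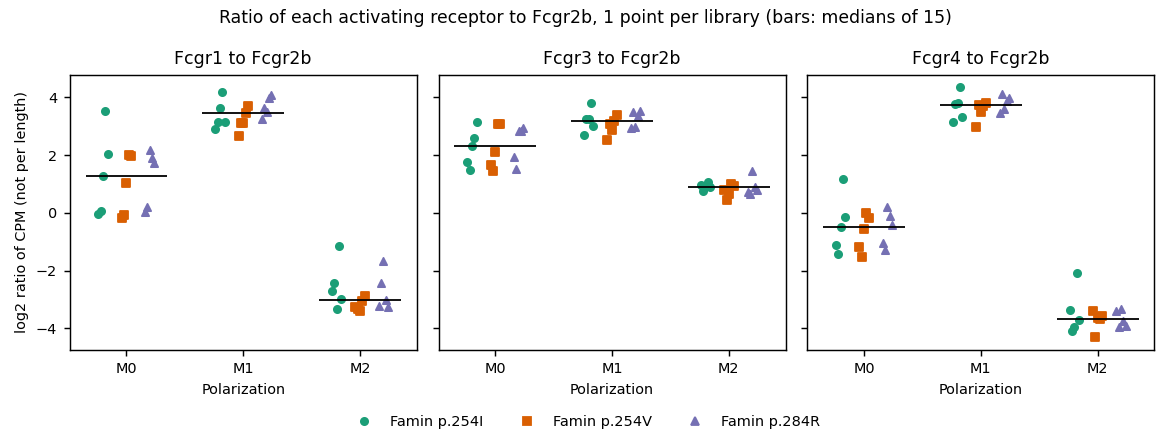
Log2 ratio of the CPM (not per length) of *Fcgr1*, *Fcgr3* and *Fcgr4* to that of *Fcgr2b*, 1 point per library by polarization and genotype, with bars at the medians of 15 libraries. For each of the 3 genes all M1 points lie above all M2 points, with the smallest gap for *Fcgr3*.

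*Fcer1g* (ENSMUSG00000058715), which encodes the FcRγ chain, lies on chromosome 1 from 171229572 to 171234365 on the minus strand. It varied least between libraries of a polarization. It had between 515 and 741 CPM in M0 (median 586), between 894 and 1062 CPM in M1 (median 955) and between 514 and 629 CPM in M2 (median 580). M1 lay above M0 and M2 without overlap, and M2 lay within the M0 range but for its lowest library. The highest M0 value was again *Famin* p.254I replicate 4, and the other 14 libraries did not exceed 606 CPM. *Fcer1g* rose 1.65-fold in M1 (log2 fold change 0.72, SE 0.036, adjusted p = 3.98e-21 by edgeR's quasi-likelihood test), in 15 of 15 mice. Between M2 and M0 the difference was -0.013 on the log2 scale, with a 95% confidence interval of -0.087 to 0.06 (adjusted p = 0.746, same test). The intervals of *Fcgr1* (-3.26 to -2.59) and *Fcgr4* (-2.33 to -1.61), whose proteins pair with FcRγ, lay below that of *Fcer1g*.

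*Fcgrt* (ENSMUSG00000003420), the IgG recycling receptor, lies on chromosome 7 from 45092990 to 45103851 on the minus strand and is overlapped on the other strand by *Gm45669*. The use of strand in the authors' counting is not given in the sources used here. *Fcgrt* had between 111 and 320 CPM in M0 (median 245), between 145 and 382 CPM in M1 (median 238) and between 26.6 and 103 CPM in M2 (median 69.4). M0 and M1 overlapped widely, and every M2 library lay below every library of both. *Fcgrt* fell by 1.61 on the log2 scale in M2 (SE 0.17, adjusted p = 1.13e-10 by edgeR's quasi-likelihood test), a 3.05-fold decrease in 15 of 15 mice. The difference between M1 and M0 was 0.26 (95% CI -0.081 to 0.61, adjusted p = 0.156, same test) and was not called. M1 exceeded M2 3.66-fold. The partner chain *B2m* differed in pattern, at a mean of 2831 CPM in M0, 8312 in M1 and 3103 in M2. *B2m* rose by 1.56 on the log2 scale in M1 (SE 0.07, adjusted p = 7.4e-23, same test) and was not called in M2 (0.14, adjusted p = 0.0674).

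*Fcgr2b*, *Fcgr3* and *Fcgrt* varied with the replicate number in M0 in each genotype. *Fcgr3* was at 925 to 1167 CPM in the 6 M0 libraries numbered 1 and 2 and at 577 to 745 CPM in the 6 numbered 4 and 5. *Fcgrt* was at 247 to 320 CPM in the former and 111 to 152 CPM in the latter. Neither gene overlapped between these sets of libraries, nor did *Fcgr2b*, as given above. In M0 the number held 96.9% of the variance of log2 CPM within genotypes for *Fcgrt*, 95.4% for *Fcgr2b* and 90.5% for *Fcgr3*, against a median of 66.0% over all genes tested. For *Fcgr4*, *Fcgr1* and *Fcer1g* the share in M0 was 71.8%, 49.8% and 37.7%. In M1 it was 91.7% for *Fcgrt*, 88.6% for *Fcgr4*, 84.2% for *Fcgr3*, 78.5% for *Fcgr2b*, 75.4% for *Fcgr1* and 52.8% for *Fcer1g*, against a median of 59.1%. In M2 it was 14.0% for *Fcgr2b*, 18.3% for *Fcgrt*, 24.8% for *Fcgr1*, 41.5% for *Fcgr4*, 46.3% for *Fcgr3* and 59.7% for *Fcer1g*, against a median of 54.3%. Fitting a mean for each number takes up part of the variance even where the number has no effect. Low shares are therefore no sign of such an effect. Over the 9 groups, deviations from the group means had a Pearson correlation of 0.89 between *Fcgr2b* and *Fcgrt*, 0.83 between *Fcgr3* and *Fcgrt* and 0.82 between *Fcgr3* and *Fcgr2b* (45 libraries, which share mice and replicate numbers). Other gene lists moved with the number as well. In M0 the 6 macrophage markers summed to 29495 to 32605 CPM in libraries numbered 1 and 2 and to 19897 to 25277 CPM in those numbered 4 and 5, and the 6 neutrophil markers to 61.4 to 205 and 20.8 to 67.3 CPM. Their part in the Fc receptor values was not tested.

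**Figure D4:**
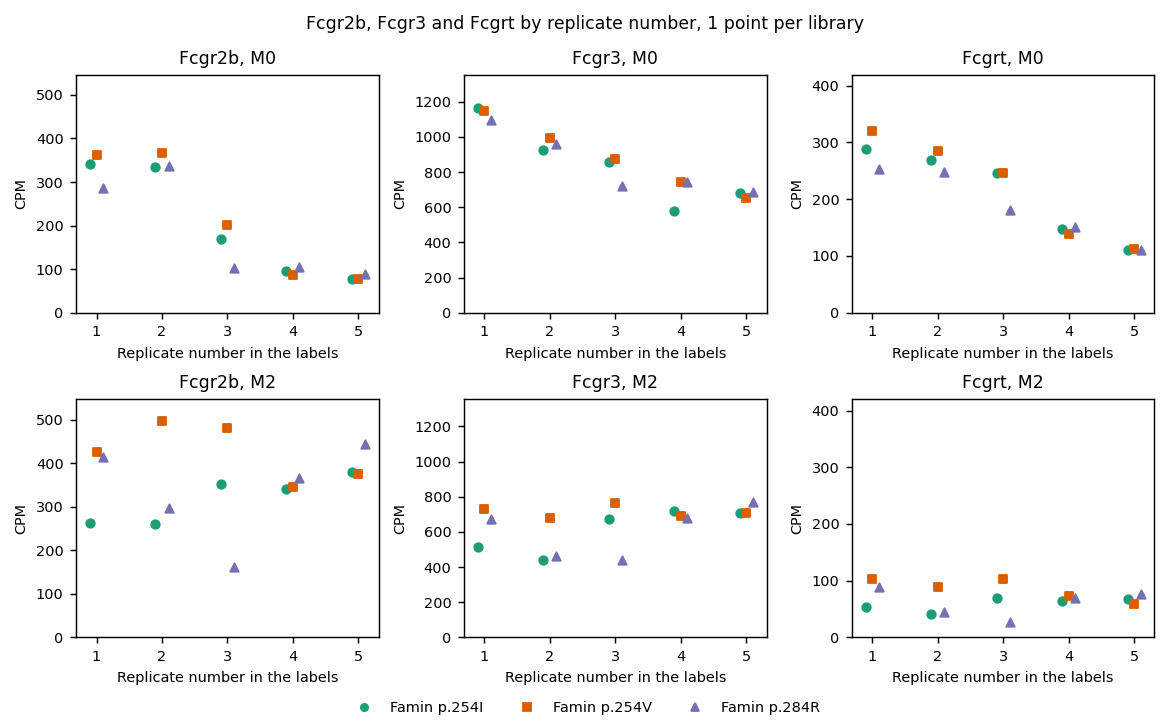
CPM of *Fcgr2b*, *Fcgr3* and *Fcgrt* against the replicate number in the labels, for M0 (upper row) and M2 (lower row), 1 point per library by genotype. In M0 the libraries numbered 4 and 5 lie below those numbered 1 and 2 for all 3 genes, and in M2 the 2 sets overlap for each gene.

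The responses of *Fcgr3* and *Fcgrt* also differed in size by number. Within mice, the mean log2 difference of M2 from M0 for *Fcgr3* was -0.84, -0.89, -0.42, 0.028 and 0.11 for numbers 1 to 5, lower in M2 in all 9 mice numbered 1 to 3 and in 2 of the other 6. For *Fcgrt* it was -1.86, -2.28, -1.94, -1.09 and -0.73, lower in M2 in all 15. These differences between numbers were not tested.

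Between genotypes, 0 of the 6 members were called in any comparison. Averaged over M0, M1 and M2, 0.0155% of genes tested differed significantly in p.284R from p.254I, 0.0155% between p.254V and p.254I and 0% between p.284R and p.254V. Within polarizations, p.284R against p.254I gave 0% in M0, 0.263% in M1 and 0.00775% in M2. The difference of p.284R from p.254V gave 0% in M0, 0.0775% in M1 and 0% in M2, and p.254V against p.254I gave 0% in each. For the 4 interactions, which test whether a response to M1 or M2 differs from that of p.254I, 0% of genes were called. Between 53 and 864 of all genes tested had an unadjusted p under 0.05 in these comparisons. At an unadjusted p under 0.05 there were 2 of 18 member values in the averaged comparisons, 0 of 54 within polarizations and 0 of 24 interactions. Over these 96 values, limma-voom and the DESeq2 Wald test also called 0, with 1 and 4 at an unadjusted p under 0.05.

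One of these 2 values was *Fcgrt* between p.284R and p.254V. In M0 *Fcgrt* was at 189 ± 61.3 CPM (SD, n = 5) in p.284R, 220 ± 91.0 in p.254V and 212 ± 78.0 in p.254I. In M1 it was at 201 ± 56.0, 290 ± 65.9 and 262 ± 79.0 CPM, and in M2 at 61.3 ± 25.3, 85.1 ± 19.6 and 59.7 ± 12.2 CPM, in the same order. The genotypes overlapped in each polarization. At matched replicate numbers, *Fcgrt* in M1 was lower in p.284R than in p.254V at 5 of 5 numbers and than in p.254I at 5 of 5, as were *Fcgr3* and *Fcgr4*. The share of all genes tested with that pattern was not counted. The 3 genes are also not separate observations, since their deviations from group means correlated at 0.62 to 0.83. In M0 *Fcgrt* was lower in p.284R than in p.254V at 4 of 5 numbers and in M2 at 4 of 5. Against p.254I it was lower in p.284R at 3 of 5 numbers in M0 and at 1 of 5 in M2. The averaged difference was -0.41 on the log2 scale (95% CI -0.75 to -0.064), and its adjusted p was 0.948 (edgeR's quasi-likelihood test). With the replicate block it was -0.39 (SE 0.14, unadjusted p = 0.00891, adjusted p = 0.59, same test), and in M1 alone -0.54 (SE 0.24, unadjusted p = 0.03, adjusted p = 0.441, same test). In M1 with the block, the other differences of p.284R in these 3 genes had unadjusted p-values from 0.116 for *Fcgrt* against p.254I to 0.522 for *Fcgr4* against p.254I.

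The other was *Fcgr1* between p.254V and p.254I, and it rested on 1 mouse. In M0 the 5 p.254I libraries had 334, 347, 413, 1098 and 321 CPM, the p.254V libraries 319, 346, 416, 352 and 303, and the p.284R libraries 294, 385, 463, 390 and 296. Outside p.254I replicate 4 the 3 genotypes overlapped. In M2 the p.254I libraries had 40.1, 48.3, 34.8, 153 and 47.8 CPM, against 41.4 to 50.7 in p.254V and 44.1 to 55.1 in p.284R. The averaged log2 difference of p.254V from p.254I was -0.35 (95% CI -0.66 to -0.037, adjusted p = 1.0, edgeR's quasi-likelihood test), and without that mouse it was 0.036 (SE 0.063). That of p.284R from p.254I was -0.31 (95% CI -0.62 to 0.0037) with all mice and 0.075 (SE 0.063) without it. For *Fcgr4* the same differences were -0.11 and -0.30 with all mice and 0.16 and -0.028 without it.

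Further intervals show what these libraries could resolve. For *Fcer1g* the averaged difference of p.284R from p.254I was -0.067 (95% CI -0.14 to 0.0063) and that of p.254V -0.044 (95% CI -0.12 to 0.029). Without p.254I replicate 4 these were -0.042 (SE 0.036) and -0.016 (SE 0.036). For *Fcgr3* the same differences with all mice were -0.082 (95% CI -0.27 to 0.11) and 0.092 (95% CI -0.10 to 0.28). For *Fcgr2b* they were -0.13 (95% CI -0.59 to 0.33) and 0.23 (95% CI -0.23 to 0.69), so differences in *Fcgr2b* within these bounds could not be told from 0 here. Between p.284R and p.254V the averaged difference was -0.36 (95% CI -0.82 to 0.10) for *Fcgr2b* and -0.17 (95% CI -0.37 to 0.018) for *Fcgr3*. In the 4 interactions, the log2 values of the members lay between -0.23 and 0.51 with a lowest unadjusted p of 0.119, and the adjusted p-values were 1.0 (edgeR's quasi-likelihood test).

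**Figure D5:**
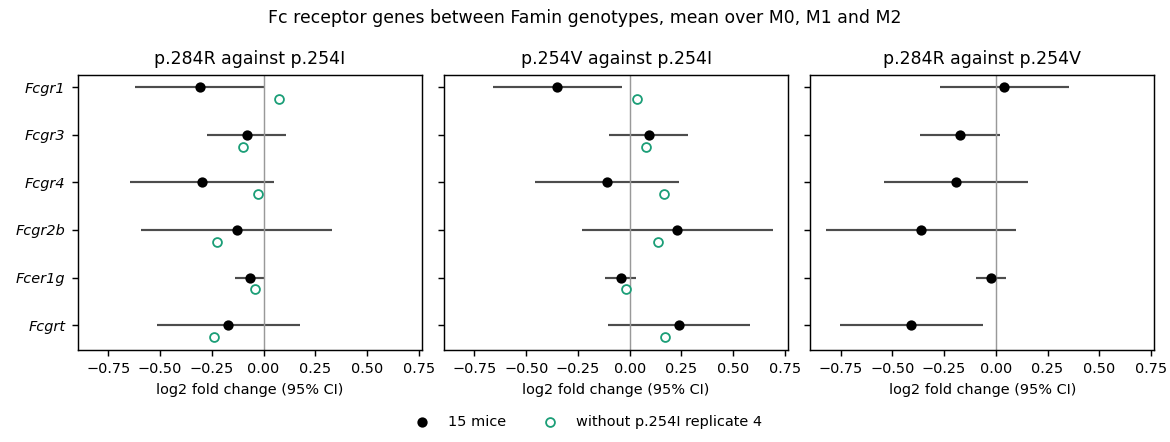
Log2 fold changes of the 6 Fc receptor genes between *Famin* genotypes, averaged over M0, M1 and M2, with 95% confidence intervals from all 15 mice (filled) and the values without p.254I replicate 4 (open, for the comparisons with p.254I). The *Fcgr1* values of -0.31 and -0.35 move to 0.075 and 0.036 without that mouse.

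The signaling genes around the receptors moved in both directions, and the counts of each list stand beside 37% of all genes tested that rose and 40.3% that fell in M1, and 36.8% and 39.6% in M2. Of 23 genes of the activating pathway tested, 12 rose and 9 fell in M1, with a median log2 fold change of 0.13 against -0.027 over all genes tested, and 8 rose and 11 fell in M2, with a median of -0.070 against -0.025. The largest falls in M1 were those of the PI3K catalytic subunit *Pik3cg* (-1.67, SE 0.080) and the adapter *Blnk* (-1.61, SE 0.075). In M2 *Prkcd*, a protein kinase C, rose by 1.85 (SE 0.032) and the CARD9 partner *Malt1* by 1.26 (SE 0.074). Of 12 inhibitory genes tested, 5 rose and 5 fell in M1 (median -0.037), and 4 rose and 7 fell in M2 (median -0.47). The phosphatase *Ptpn6*, which encodes SHP-1, rose by 1.38 (SE 0.084) in M1, and the inhibitory receptor *Sirpa* fell by 1.01 (SE 0.041). In M2 the ubiquitin ligase *Cblb* rose by 2.01 (SE 0.064) and the adapter *Dok2* by 1.74 (SE 0.075), whereas *Dok3* fell by 1.52 (SE 0.096). Each of these named changes had an adjusted p under the threshold (edgeR's quasi-likelihood test).

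Another list held 25 genes chosen around binding of antibody Fc parts or coupling to FcRγ or DAP12. It was not limited to genes with these roles and included *B2m*, the partner chain of FcRn, and *Tyrobp*, which encodes DAP12. Of the 17 tested, 3 rose and 12 fell in M1 (median -1.14) and 6 rose and 9 fell in M2 (median -0.23). *Fcer1a* and *Ms4a2*, the IgE receptor chains that share FcRγ with the IgG receptors in mast cells, averaged at most 0.036 CPM in any polarization and were not tested. In M1 the Fc receptor-like gene *Fcrls* (-3.59, SE 0.16) and the C-type lectin *Clec4d* (-3.36, SE 0.16) fell most, and *Trim21*, the cytosolic antibody receptor, rose by 1.96 (SE 0.073). In M2 *Fcrl1* (-3.29, SE 0.16) and *Clec4e* (-2.86, SE 0.28) fell most. Of 23 tested effectors of phagocytosis, 15 rose and 3 fell in M1 (median 0.17), and 10 rose and 9 fell in M2 (median 0.012), near the shares of all genes in M2. The changes were small, and the largest were *Arf6* (0.85, SE 0.037) in M1 and the cofilin kinase *Limk1* (1.30, SE 0.036) and *Dock2* (1.00, SE 0.050) in M2. Among the polarization controls, 6 of 6 M1 genes rose in M1 and 6 of 6 M2 genes rose in M2. Of the M1 genes, 3 also rose in M2, among them *Socs1* (5.15, SE 0.11) and *Nos2* (3.28, SE 1.03), and 1 fell. Of the M2 genes, *Arg1* rose in M1 (2.20, SE 0.67) and 2 fell. In these comparisons *Nos2* and *Arg1* were mostly near the floor. *Nos2* reached at most 0.156 CPM in M0 and 0.574 CPM in M2. Outside p.254I replicate 4, *Arg1* had a median of 0.276 CPM in M0 and 0.645 CPM in M1, where its highest library had 40.8 CPM.

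*Fcgr2b*, *Fcgr4*, *Fcgr3* and *Fcer1g* lie within 1 stretch of chromosome 1. Between them, *Pcp4l1* fell at least 2-fold in M1 (-3.47, SE 0.18) and in M2 (-1.59, SE 0.16). *Cfap126*, *Sdhc*, *Tomm40l* and *Apoa2* changed by less than 2-fold, between -0.50 and 0.65 on the log2 scale. *Pcp4l1* thus moved opposite to *Fcgr4*, *Fcgr3* and *Fcer1g* in M1 and in the same direction as *Fcgr2b*. In M2 it fell, as did *Fcgr4* and *Fcgr3*, while *Fcgr2b* rose.

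By Pearson correlation of log2 CPM over 45 libraries, which mostly reflects the 3 polarizations, the genes most like *Fcgr1* were *Plod1* (0.991), *Lfng* (0.989) and *Ms4a6c* (0.987). Those most like *Fcgr4* were *Irf8* (0.992), *Irgm2* (0.987) and *Nod1* (0.986), and those most like *Fcer1g* were *Prpf38a* (0.979), *Phf11b* (0.979) and *Rap2c* (0.978). *Fcgrt* was most like *Setd7* (0.955), *Fcho2* (0.947) and *Serinc3* (0.946). The gene most like *Fcgr3* was another member, *Fcgrt* (0.902), followed by *Slc36a1* (0.895) and *Kif9* (0.885). Genes like *Fcgr2b* included *Dip2b* (0.891) and *Litaf* (0.888). Among the members themselves, *Fcgr1* and *Fcgr4* had a correlation of 0.94, and *Fcgr2b* had negative ones with all 5 others, between -0.75 with *Fcgr1* and -0.14 with *Fcgr3*.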

How the data were processed

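RNA of 45 macrophage cultures was sequenced from stranded mRNA libraries as single reads of 50 bases. The authors deposited counts, the reads per Ensembl gene without normalization, and CPM, the same reads scaled to a library's sum in that table. Per the labels, Trim Galore, HISAT2 and mm10 were used, whereas the series description names Cutadapt and STAR. The counting tool and its annotation are not given in the sources used here. Whole reads recovered from the CPM equalled the counts in 100% of values (tolerance 0.05).

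Counts were analyzed in R 4.3.3 with edgeR 4.0.16: filterByExpr, TMM, and glmQLFit with robust dispersions over 9 groups, checked on simulated counts. The simulated counts held no effect of mouse or replicate number, so the check does not cover such effects. CPM given here are scaled with TMM. Confidence intervals are 95%. limma 3.58.1 and DESeq2 1.42.0 were alternatives, beside other scaling, other filters, replicate number or mouse as a block, only the libraries compared, and each mouse left out. The test on recovered reads was added after seeing the data. Libraries of 1 mouse entered the fit as independent. For genotype differences averaged over polarizations, this can make the intervals too narrow and the p-values too small. The 3 cultures sharing a genotype and number were taken to come from 1 animal. They were paired in the counts of mice, in the within-mouse differences and where mouse was a block, not in the main fit. Deviations of these cultures from group means correlated at over 0.1 in 13 of 15 mice between M0 and M1. This held in 15 of 15 mice between M0 and M2 and in 10 of 15 between M1 and M2 (8187 genes). Libraries of 1 number in different genotypes correlated at 0.12 to 0.88 in M0, so these values cannot show that the cultures shared a mouse. P-values of the main fit set a difference against the spread between these libraries, which mixes mice, cultures of 1 mouse and replicate numbers.

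Genes named are the members, the 3 called genes of largest change per list in M1 and M2 (up to 3 are printed), the 3 most correlated genes per member, cluster neighbors changed at least 2-fold, and markers. Other genes, such as *B2m* and the remaining cluster genes, were added as context after their values were seen. The members and lists were chosen with earlier results of these data known. Annotation was GENCODE M21 (GRCm38, the assembly of mm10), and 250 bases before each RefSeq start were searched for motifs. *Lilrb4a* and *Clec6a* had no match by symbol. Some genes that the rule names are not reported here.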

Additional observations from a re-analysis of the deposited data

Results flagged for a closer look

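Of the 54 combinations of a member and a group of 5 libraries, 3 had a library far from the other 4, where the gap to the nearest library took more than 0.71 of the group's range of log2 CPM. All 3 were *Famin* p.254I replicate 4. The gap was 0.797 of the range for *Fcgr1* in M0, 0.779 for *Fcgr1* in M2 and 0.824 for *Fcer1g* in M0, each above the other libraries. Chance alone marks about 1 in 20 groups. In M1 the same mouse had the highest *Fcgr1* of 15 libraries (1387 CPM), against 1064 to 1346 CPM in the other 14. The interactions gave 0 of 24 member values with an adjusted p under 0.05 (edgeR's quasi-likelihood test).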

How the results depend on the processing

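Under 25 alternatives (24 for comparisons of genotypes, where the mouse cannot be a fixed block), the number of members called kept within 1.5 times its value in every comparison, and each called change of a member between polarizations kept its direction. *Fcgr3* in M1 against M0 lost its call when *Famin* p.254I replicate 4, p.254V replicate 3 or p.284R replicate 3 was left out, and ranged from 0.20 to 0.29 over the mice left out. *Fcer1g* in M2 against M0, not called, ranged from -0.020 to 0.016. Over the mice left out, some uncalled genotype differences changed sign. Against p.254I, *Fcgr1* ranged from -0.39 to 0.075 in p.284R and from -0.43 to 0.036 in p.254V, and *Fcgr4* from -0.20 to 0.16 in p.254V, each with the highest value without p.254I replicate 4. In p.284R against p.254V, *Fcgr1* ranged from -0.0080 (without p.284R replicate 3) to 0.079 and *Fcer1g* from -0.045 to 0.0072 (without p.284R replicate 1). With the replicate number as a block (replicate block), *Fcgr2b* was at -0.67 in M1 and 1.04 in M2, *Fcgrt* at 0.29 in M1 (adjusted p = 0.0553, edgeR's quasi-likelihood test) and -1.53 in M2, and *Fcgr3* at 0.24 and -0.39. This block and the mouse as a block changed no call of a member. Of 54 member differences between genotypes within a polarization and 24 interactions, 25 and 15 changed sign under at least 1 alternative, with 0 called. The count of all genes called between p.284R and p.254I in M1 was 34 and ranged from 0 without p.284R replicate 5 to 109 without p.284R replicate 2; between p.284R and p.254V in M1 it was 10 and ranged from 0 to 65. Averaged over polarizations, the counts of 2, 2 and 0 ranged from 1 to 19, 0 to 5 and 0 to 7. Total counts in place of TMM moved the mean CPM of each member by less than 1 SD. With 5 mice per genotype, the widths of the intervals limit what differences in *Fcgr2b* and *Fcgrt* could be seen.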
